A study of Mus musculus with 12 samples.

Results

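The comparison is between distal ascending aorta of Notch1 heterozygous mice and the same tissue of wildtype littermates. Its members are the 6 distal libraries of a series of 12, and the 15592 of 21954 deposited genes that had at least 1 RPKM (reads scaled for gene length and library depth) in at least 3 of those 6 libraries. The groups were the distal libraries labelled Notch1+/- (strain Notch1.129S6+/-, n = 3 mice) and the distal libraries labelled wildtype (strain 129S6, n = 3 mice), all from animals 2 months old with no treatment named. The other 6 libraries came from the proximal ascending aorta of the same 6 mice and are used here for the shared estimate of spread and for setting values of a gene side by side. The study asked why dilation in these heterozygous mice stayed at the aortic root, so the distal segment is the part of the vessel in which dilation was not described. The labels do not say which exons the targeted allele has lost.

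Notch1 is a receptor on the cell surface. When a Jagged or Delta-like ligand on a neighbouring cell binds it, the proteases Adam10 and gamma-secretase cut it, and the released intracellular domain joins Rbpj on DNA and switches on genes of the Hes and Hey families. In arteries the pathway acts in endothelium and in smooth muscle, and loss of 1 NOTCH1 copy in people is known for bicuspid aortic valve and ascending aortic aneurysm. The aortic media is built of smooth muscle cells between sheets of elastin, with collagen and proteoglycan around them, and an adventitia of fibroblasts with fat, lymphatics and macrophages lies outside it.

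The 6 distal libraries had 34073296, 29675017 and 31944552 total reads in those labelled Notch1+/-, against 26518332, 33644110 and 31940469 in wildtype. The authors' replacement value for low or undetected genes, 0.158 RPKM, is called the floor here, and 565 of the 15592 genes had at least 1 distal library there. Genes of the aortic media were high in every distal library. Acta2, the smooth muscle actin, stood at 1425 RPKM or more, Myh11 at 849.6 or more and Eln, which encodes elastin, at 61.3 or more. These genes do not tell distal from proximal ascending aorta. Mitochondrial transcripts took 29.6%, 24.1% and 41.3% of the summed RPKM in the libraries labelled Notch1+/-, against 36.5%, 34.2% and 35.6% in wildtype. Pairs of libraries within the group labelled Notch1+/- correlated at r = 0.916 to 0.941 over genes on the log2 scale, pairs within wildtype at 0.926 to 0.937, and pairs across genotypes at 0.912 to 0.948. Library 3 labelled Notch1+/- stood apart on the first principal component, which held 34.0% of the variance, and wildtype library 1 on the second, which held 21.9%.

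No gene passed the test of genotype in the distal aorta. Of 15592 genes, 0 had a Benjamini-Hochberg adjusted p under 0.05 in limma (0%), and the lowest adjusted p was 0.452, for the predicted RNA gene Gm22547. At an unadjusted p under 0.05 there were 475 genes (3.05%), 178 of them higher (1.14%) and 297 lower (1.90%) in the libraries labelled Notch1+/-. Every library labelled Notch1+/- lay above every wildtype library for 409 genes (2.62%) and below for 575 (3.69%), 984 or 6.31% together. Among the 10266 protein-coding genes 167 had an unadjusted p under 0.05 (1.63%). The authors' deposited table, from an analysis of all 4 groups with Tukey comparisons, gave 622 genes with a distal p under 0.05 and a lowest false discovery rate of 0.218, so that 0 genes passed there as well.

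The width of the intervals shows what size of difference these libraries could carry. The 95% interval of a gene reached a median of 0.588 to either side of its log2 difference, and 0.495 for the 3448 genes with a mean of at least 10 RPKM. For 11207 genes, 71.9% of those tested, the whole interval lay between -1 and 1 on the log2 scale. For them a difference of 2-fold or more in RPKM + 0.5 lay outside the interval. For the rest such a difference was not detectable or not excluded at this spread. For low genes a 2-fold difference in RPKM itself is smaller on this scale and could lie inside an interval between -1 and 1. The median log2 difference over all genes was -0.04, with 6696 of 15592 above 0. With each library scaled to a constant sum over genes outside the mitochondrial genome the median was -0.15 and 4208 lay above 0. Fitted differences here are on the log2(RPKM + 0.5) scale, libraries labelled Notch1+/- minus wildtype, which understates the change of low genes.

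**Figure D1:**
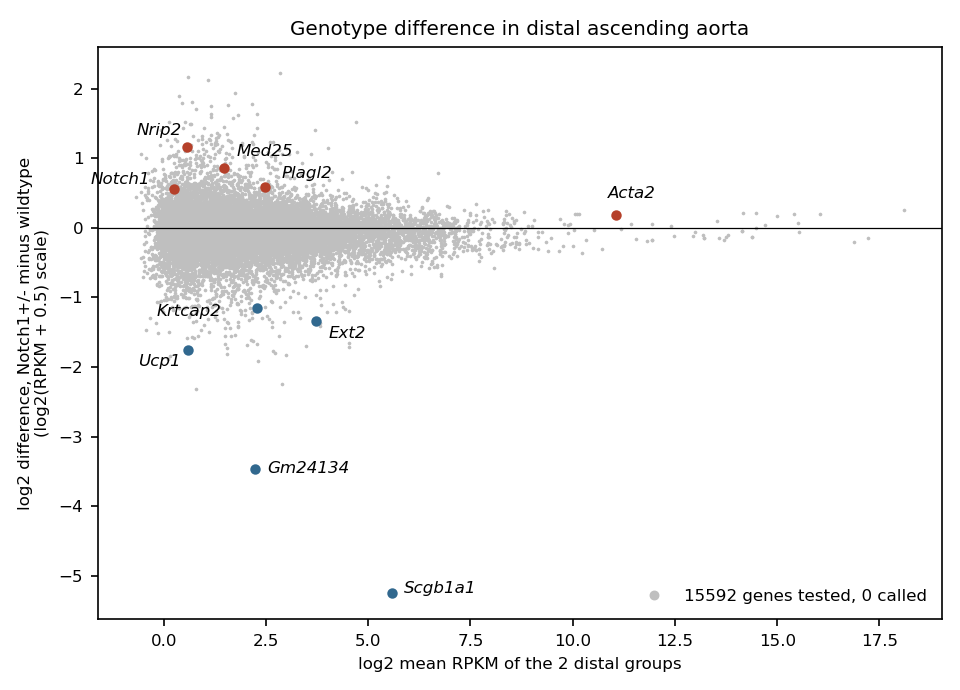
Log2 difference (libraries labelled Notch1+/- minus wildtype, log2(RPKM + 0.5) scale, vertical axis) against the log2 mean RPKM of both distal groups (horizontal axis) for the 15592 genes tested, 1 point per gene, with some genes of the text in red where above 0 and in blue where below. Most genes lie near 0, and Scgb1a1 (-5.25) and Gm24134 (-3.46) lie lowest.

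Notch1 itself was not lower in the libraries labelled Notch1+/-. It stood at 1.18, 1.85 and 1.51 RPKM in the libraries labelled Notch1+/-, against 1.12, 0.972 and 0.538 RPKM in wildtype. Every library labelled Notch1+/- lay above every wildtype library, by a narrow gap between the nearest pair. The means were 1.52 ± 0.335 and 0.877 ± 0.303 RPKM (SD, n = 3 each), and p was 0.1 by an exact permutation test (2-sided), the smallest that 3 against 3 libraries allow. The fitted log2 difference was 0.56 (SE 0.25, 95% interval 0.02 to 1.1), with an unadjusted limma p of 0.0428 that did not pass adjustment over all genes. These values rest on 313 to 428 reads in the libraries labelled Notch1+/-, against at most 255 reads in wildtype. In proximal tissue of the same mice the difference was 0.38 (SE 0.25). Notch1 stood there at 2.20, 1.65 and 1.63 RPKM in the libraries labelled Notch1+/-, against 1.11, 1.19 and 1.56 RPKM in wildtype. The groups did not overlap there either, and the locations share their mice. The RPKM is summed over all exons of the gene, so these values do not check the genotype labels, and the groups are written as labelled.

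Notch1 (ENSMUSG00000026923, mm10 chr2:26457903-26516663, minus strand) overlaps genes read from the other strand over 9.76% of its 14232 exon bases, and the library kit does not mark strand. The 9.76% counts bases shared with either 0610009E02Rik or Gm13568, and values of 0610009E02Rik are not given here. Gm13568 covers chr2:26457144-26458316 at the 3' end of Notch1, so it can meet Notch1 only between 26457903 and 26458316. Gm13568 stood at 4.70, 6.91 and 4.53 RPKM in the libraries labelled Notch1+/-, against 2.79, 4.38 and 1.81 RPKM in wildtype. Its order across libraries resembles that of Notch1, and reads of the overlapping bases cannot be told apart between the pair.

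The other receptors and the ligand that passed the filter lay in overlapping ranges. Notch2 stood at 8.86, 14.4 and 8.79 RPKM in the libraries labelled Notch1+/-, against 8.35, 9.15 and 10.3 RPKM in wildtype (log2 difference 0.16, SE 0.23). Notch3, the receptor of arterial smooth muscle, stood at 2.65, 1.81 and 1.63 RPKM in the libraries labelled Notch1+/-, against 2.04, 1.72 and 2.31 RPKM in wildtype (log2 difference -0.01, SE 0.23). Jag1, the ligand that smooth muscle and endothelium present, stood at 4.38, 5.65 and 6.77 RPKM in the libraries labelled Notch1+/-, against 4.71, 5.63 and 6.71 RPKM in wildtype (log2 difference -0.03, SE 0.23). For all 3 genes the wildtype range and that of the libraries labelled Notch1+/- covered much the same levels. The Delta-like ligand Dll1 did not pass the filter, at up to 0.336 RPKM in the libraries labelled Notch1+/- and up to 0.437 in wildtype, and Notch4, Jag2, Dll3, Dll4, Dlk1 and Dlk2 were not analysed here.

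The proteins that carry the signal showed 0 genes at an unadjusted p under 0.05 among 20 tested of 23 listed, with a median log2 difference of -0.03. Rbpj, the DNA-binding partner of the cleaved receptor, stood at 3.02, 4.21 and 2.80 RPKM in the libraries labelled Notch1+/-, against 3.87, 4.12 and 4.46 RPKM in wildtype (log2 difference -0.29, SE 0.20). Psenen, a subunit of gamma-secretase, stood at 14.9, 27.4 and 18.4 RPKM in the libraries labelled Notch1+/-, against 10.3, 17.2 and 20.8 RPKM in wildtype (log2 difference 0.33, SE 0.27). Neither group of values separated from the other. Adam10, the protease that makes the first cut in the bound receptor, had a log2 difference of -0.22, and the co-activators Maml1 and Maml2 had 0.14 and 0.13.

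Transcription factors and other genes that Notch signalling is known to switch on did not separate by genotype either. Of 20 listed, 18 were in the table and 15 passed the filter, with fitted differences above 0 for 9 and below 0 for 6, a median of 0.05 and 0 at an unadjusted p under 0.05. Leaving out 1 library at a time moved that median between -0.09, without library 2 labelled Notch1+/-, and 0.25, without library 3 labelled Notch1+/-. Heyl, a repressor of the Hey family, stood at 33.8, 53.4 and 58.0 RPKM in the libraries labelled Notch1+/-, against 24.7, 34.9 and 51.3 RPKM in wildtype (log2 difference 0.41, SE 0.30). Hes1, a repressor of the Hes family, stood at 3.51, 3.72 and 1.08 RPKM in the libraries labelled Notch1+/-, against 2.1, 2.72 and 1.81 RPKM in wildtype (log2 difference 0.15, SE 0.44). The lowest and the highest Hes1 value both came from libraries labelled Notch1+/-. Hey1 stood at 1.98, 1.25 and 0.724 RPKM in the libraries labelled Notch1+/-, against 1.82, 1.6 and 1.06 RPKM in wildtype (log2 difference -0.17, SE 0.31). Hey2, a Hey family repressor of arterial cells, stood at 24.3, 22.7 and 19.6 RPKM in the libraries labelled Notch1+/-, against 19.7, 17.5 and 20.6 RPKM in wildtype (log2 difference 0.20, SE 0.22). These intervals reached from -0.25 to 1.06 for Heyl, -0.81 to 1.12 for Hes1, -0.84 to 0.50 for Hey1 and -0.29 to 0.68 for Hey2, so a fall of Hey2 beyond 0.29 on the log2 scale lay outside its interval.

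The Hey2 promoter is shown because it carries the core letters that Rbpj binds at a gene the pathway is known to drive. The window runs from 250 bases before to 50 bases after the start (RefSeq, GRCm38.p6, chr10:30842734-30843033, minus strand), with the core TGGGAA, searched on both strands, in capitals.
Hey2: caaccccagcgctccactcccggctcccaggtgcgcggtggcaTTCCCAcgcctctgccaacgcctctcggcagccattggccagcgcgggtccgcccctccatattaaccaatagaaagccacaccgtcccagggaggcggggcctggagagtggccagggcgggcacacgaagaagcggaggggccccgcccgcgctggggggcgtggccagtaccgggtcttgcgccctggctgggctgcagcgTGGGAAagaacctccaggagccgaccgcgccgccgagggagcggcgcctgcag
The core stands at 2 places in this window. It stands in 3 of the 11 listed target genes with a promoter in the table (27.3%), and in 7651 of all 27025 genes with one (28.3%), so its presence does not set the listed targets apart.

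The remaining listed targets were as close between genotypes. Nrp1, a receptor for semaphorins and VEGF, had a log2 difference of -0.33 (SE 0.20) and Pdgfrb, the PDGF receptor of smooth muscle and pericytes, 0.26 (SE 0.21). The inhibitors of differentiation Id1 and Id3 had 0.03 and -0.32, Myc had 0.27, the cyclin gene Ccnd1 -0.25, the zinc finger repressor Snai2 -0.12, the arterial ephrin Efnb2 0.07, Hes6 0.24, Dtx3 -0.04 and the cytokine gene Il33 0.05. Nrarp, Dtx1 and Snai1 did not pass the filter.

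**Figure D2:**
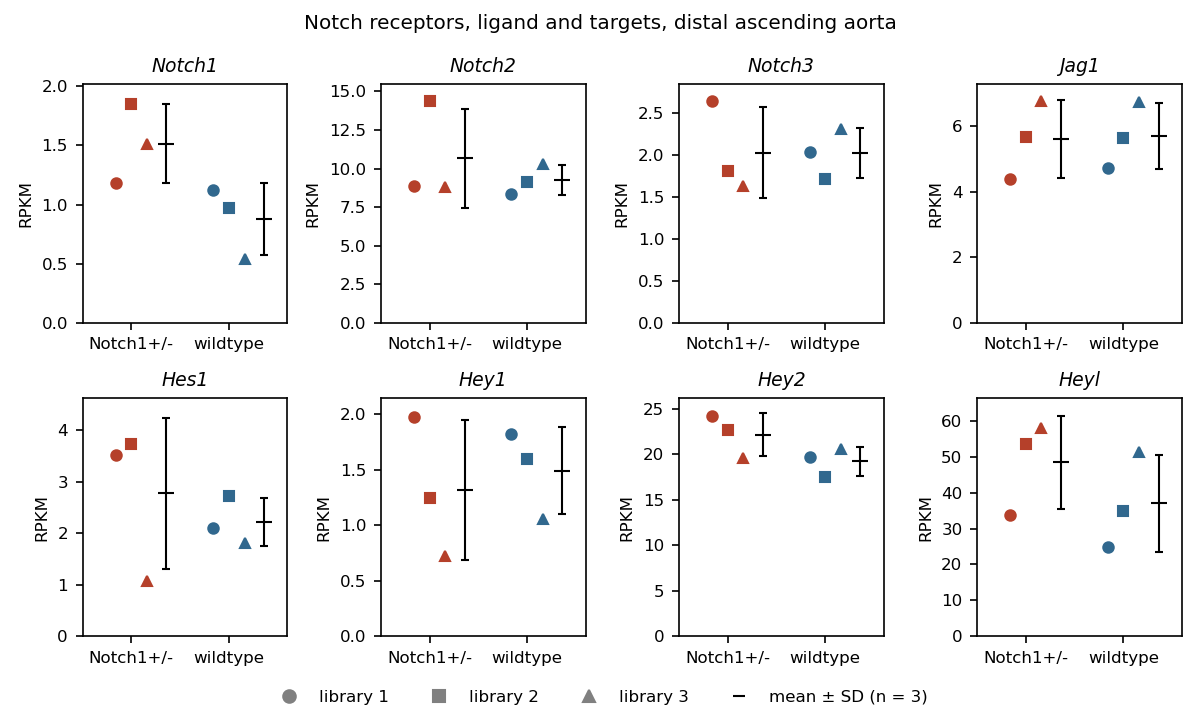
RPKM (vertical axes, from 0) of 3 Notch receptors, the ligand Jag1 and 4 targets in each distal library labelled Notch1+/- (red) and wildtype (blue); points are libraries, black marks the mean ± SD (n = 3). Notch1 does not overlap between groups (1.18 to 1.85 against 0.538 to 1.12), while the other 7 genes do.

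Genes of the contractile apparatus had fitted differences above 0 throughout, none of which passed the test. The 20 genes tested had log2 differences of 0.02 to 0.43 with a median of 0.18, against -0.04 over all genes, and 0 at an unadjusted p under 0.05. Acta2 stood at 2123 RPKM, 2620.2 RPKM and 2009.5 RPKM in the libraries labelled Notch1+/-, against 1425, 2303 and 2305 RPKM in wildtype (log2 difference 0.19, SE 0.21). Lmod1, which nucleates actin filaments in smooth muscle, stood at 116, 112 and 74.8 RPKM in the libraries labelled Notch1+/-, against 48.5, 85.6 and 95.8 RPKM in wildtype (log2 difference 0.43, SE 0.26). Pdlim7, a cytoskeletal scaffold, stood at 59.1, 52.3 and 45.3 RPKM in the libraries labelled Notch1+/-, against 36.1, 48.8 and 43.2 RPKM in wildtype (log2 difference 0.29, SE 0.18). In each of these genes wildtype library 1 was the lowest of the 6. The summed level of the list was 7259, 8576 and 6285 RPKM in the libraries labelled Notch1+/-, against 5165, 7265 and 7295 RPKM in wildtype. Without wildtype library 1 the median was 0.05 and 12 of 20 differences lay above 0. Without library 2 labelled Notch1+/- it was 0.04 with 14 of 20 above 0, and the median of all genes was -0.14. With each library scaled to a constant sum over genes outside the mitochondrial genome 13 of 20 lay above 0, and the median of all genes moved to -0.15; the list then stood 0.21 above that median, against 0.23 as first scaled.

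The elastic fibre list, 17 genes tested of 21, had a median of -0.00, and 0 genes had an unadjusted p under 0.05. The median depended on single libraries: it was -0.23 with 14 of 17 below 0 without wildtype library 1, -0.16 without library 2 labelled Notch1+/- and 0.12 without library 3 labelled Notch1+/-. Eln stood at 166, 174 and 271 RPKM in the libraries labelled Notch1+/-, against 61.3, 173 and 356 RPKM in wildtype (log2 difference 0.35, SE 0.54), with both the lowest and the highest value in wildtype. Emilin1, an elastin-associated glycoprotein, stood at 5.99, 7.08 and 6.35 RPKM in the libraries labelled Notch1+/-, against 2.29, 5.69 and 7.12 RPKM in wildtype (log2 difference 0.45, SE 0.34). Loxl1, a cross-linking enzyme of elastin, had a log2 difference of 0.32 (SE 0.28), Fbn1, which encodes fibrillin-1, 0.10 (SE 0.27) and the cross-linker Lox -0.05 (SE 0.36). Among 16 collagen genes 0 had an unadjusted p under 0.05 and the median was 0.04; the basement membrane chain Col4a2 had 0.28 (SE 0.19) and the fibrillar chain Col5a1 0.19 (SE 0.22). Without wildtype library 1 the collagen median was -0.11 with 3 of 16 above 0, and without library 3 labelled Notch1+/- it was 0.18 with 14 of 16 above 0.

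Proteoglycan genes gave 3 of 13 tested below wildtype in every library (575 of all genes, 3.69%) and a median of -0.03, with 0 at an unadjusted p under 0.05. Lum, the small leucine-rich proteoglycan lumican, stood at 58.2, 68.1 and 56.4 RPKM in the libraries labelled Notch1+/-, against 85.4, 73.9 and 85.6 RPKM in wildtype (log2 difference -0.42, SE 0.28). Dcn, which encodes decorin, stood at 296, 312 and 226 RPKM in the libraries labelled Notch1+/-, against 378, 348 and 311 RPKM in wildtype (log2 difference -0.32, SE 0.24). Lum is one of the 3 genes below wildtype in every library, while the groups overlapped for Dcn. In proximal tissue both genes had differences of 0.03. Of the matrix proteases, the versican-cleaving Adamts9 had a log2 difference of -0.33 (SE 0.19) and the cathepsin gene Ctsk -0.61 (SE 0.37).

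Genes in which variants cause heritable aortic disease gave 1 of 22 tested at an unadjusted p under 0.05, beside 3.05% of all genes, and that gene was Notch1. The next smallest p was that of Myh11, smooth muscle myosin, with a log2 difference of 0.20 (SE 0.22). The TGF-beta pathway list of 20 genes had a median of -0.15 with 0 at an unadjusted p under 0.05. Without library 3 labelled Notch1+/- the median was 0.03 with 11 of 20 above 0, and without wildtype library 1 it was -0.06. The ligand Tgfb2 had -0.23, the receptor Tgfbr2 -0.21 and the signal transducer Smad3 -0.25. Ctgf, a matricellular target, stood at 134, 112 and 104 RPKM in the libraries labelled Notch1+/-, against 117, 159 and 182 RPKM in wildtype (log2 difference -0.38, SE 0.23), and Tgfbi, another, had -0.46 (SE 0.30). In the BMP list of 14 genes 2 lay below wildtype in every library (3.69% of all genes did). Fst, which encodes the secreted inhibitor follistatin, stood at 1.40, 1.74 and 1.80 RPKM in the libraries labelled Notch1+/-, against 3.16, 2.28 and 1.90 RPKM in wildtype (log2 difference -0.44, SE 0.23). Mgp, matrix Gla protein, an inhibitor of calcification of arteries, stood at 514, 592 and 421 RPKM in the libraries labelled Notch1+/-, against 631, 606 and 637 RPKM in wildtype (log2 difference -0.31, SE 0.20).

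Other lists of the vessel wall gave 0 or 1 gene each at an unadjusted p under 0.05, beside 3.05% of all genes. The single genes were Tcf21 of 13 outflow tract factors tested, Prg4 of 5 cartilage and valve genes and Ddit3 of 17 heat shock and protein stress genes. In the renin-angiotensin and endothelin list the receptor Agtr1a had a log2 difference of -0.54 (SE 0.40) and the peptide Edn1 -0.24 (SE 0.22). Tcf21, a transcription factor of adventitial and epicardial mesenchyme, stood at 3.65, 3.83 and 2.59 RPKM in the libraries labelled Notch1+/-, against 1.52, 2.88 and 1.84 RPKM in wildtype (log2 difference 0.60, SE 0.26, unadjusted limma p 0.0386). Prg4, which encodes lubricin, stood at 2.11, 1.90 and 2.51 RPKM in the libraries labelled Notch1+/-, against 6.76, 6.45 and 2.33 RPKM in wildtype (log2 difference -0.97, SE 0.39, unadjusted limma p 0.0269). For both genes 1 library kept the groups from separating. Ddit3, the stress transcription factor CHOP, stood at 6.94, 8.85 and 3.97 RPKM in the libraries labelled Notch1+/-, against 3.02, 3.90 and 5.11 RPKM in wildtype (log2 difference 0.61, SE 0.27, unadjusted limma p 0.0393), and had -0.39 in proximal tissue. The Hox genes tested, of which Hoxa2 had 0.29 (SE 0.20) and Hoxb3 0.13 (SE 0.24), the interferon response genes (Stat2 0.49, Ifit2 -0.49), the inflammation genes (Cxcl12 0.26, Ptgs2 -0.19) and the 13 histone genes tested (Hist3h2a -0.49, H3f3b -0.23) gave 0.

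**Figure D3:**
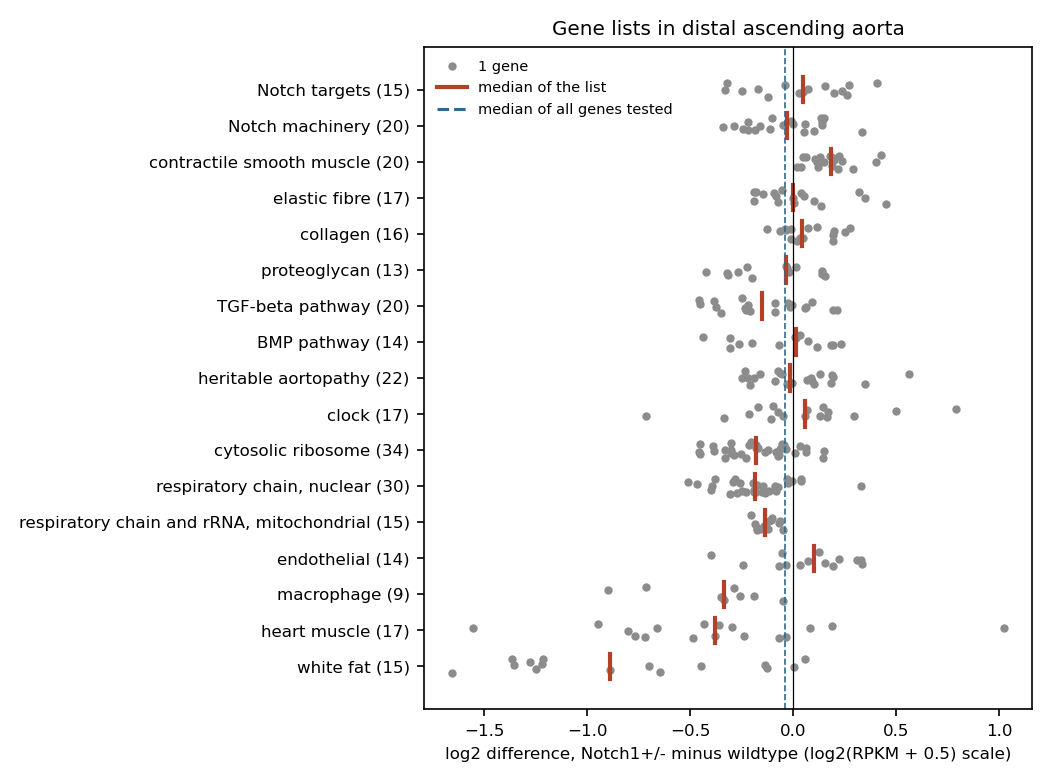
Log2 difference (libraries labelled Notch1+/- minus wildtype, log2(RPKM + 0.5) scale, horizontal axis) of each tested gene in 17 gene lists (rows, number of genes tested in brackets); grey points are genes, red lines the list medians and the dashed blue line the median of all genes tested (-0.04). All 20 contractile genes lie right of 0 (median 0.18), the white fat list lies furthest left (median -0.89), and no gene shown passed the adjusted test.

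The genes with the smallest p and groups that did not overlap were named by rule, 12 in each direction with predicted genes (Gm and Rik symbols) left out, and did not pass adjustment. Of all genes tested, 37 passed the filter only through the libraries labelled Notch1+/- and 44 only through wildtype; a gene of this kind had to be high in that group, so for Mir6346, Nrip2, RP23-20K24.9, n-R5s142, n-R5s128, Ucp1, Enthd2, Arntl2 and Gm24134 the values are a description with no test. Krtcap2, which encodes a subunit of the oligosaccharyltransferase that adds sugars to new proteins, stood at 2.58, 3.24 and 2.65 RPKM in the libraries labelled Notch1+/-, against 7.49, 5.78 and 7.38 RPKM in wildtype. The gap between the groups exceeded the range within either. Its log2 difference was -1.15 (SE 0.20), with a limma adjusted p of 0.684, and it rests on 73, 80 and 70 reads in the libraries labelled Notch1+/-, against 165, 162 and 195 reads in wildtype. Krtcap2 (mm10 chr3:89245966-89249906) shares 15.7% of its exon bases with Trim46 on the opposite strand. Trim46 ran the other way, at 1.67, 1.84 and 1.6 RPKM in the libraries labelled Notch1+/-, against 0.984, 1.30 and 1.09 RPKM in wildtype.

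Ext2, a glycosyltransferase that with Ext1 builds heparan sulfate chains, stood at 9.05, 5.14 and 7.45 RPKM in the libraries labelled Notch1+/-, against 27.2, 16.7 and 14.0 RPKM in wildtype. Every library labelled Notch1+/- lay below every wildtype library, on 611 to 1232 reads in the libraries labelled Notch1+/-, against 1783 to 2882 reads in wildtype. The log2 difference was -1.34 (SE 0.36, unadjusted limma p 0.00256). Its partner Ext1 stood at 25, 26.0 and 24.8 RPKM in the libraries labelled Notch1+/-, against 17.7, 25.4 and 33.7 RPKM in wildtype (log2 difference 0.03, SE 0.23). In proximal tissue the Ext2 difference was 0.74, and the difference between the locations was -2.08 (SE 0.50), with an unadjusted limma p of 0.00129 and an adjusted p of 0.9996.

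Nrip2, a nuclear receptor co-regulator, stood at 1.47, 3.07 and 2.24 RPKM in the libraries labelled Notch1+/-, against 0.735, 0.621 and 0.751 RPKM in wildtype (log2 difference 1.16, SE 0.34). The wildtype libraries lay close together, and those labelled Notch1+/- were spread over 2-fold. Med25, a subunit of the Mediator complex, stood at 2.86, 5.21 and 3.16 RPKM in the libraries labelled Notch1+/-, against 2.11, 1.72 and 1.56 RPKM in wildtype (log2 difference 0.85, SE 0.26, unadjusted limma p 0.00615). Plagl2, a zinc finger transcription factor, stood at 7.46, 5.76 and 7.24 RPKM in the libraries labelled Notch1+/-, against 4.54, 3.85 and 4.66 RPKM in wildtype (log2 difference 0.59, SE 0.18, unadjusted limma p 0.00697). In proximal tissue these 3 genes had differences of 0.43, 0.18 and -0.06. The zinc finger gene Unk had 0.66 (SE 0.22), the orphan nuclear receptor gene Nr2f6 0.62 (SE 0.21) and Fam124a 0.70 (SE 0.24). Nr2f6 shares 54.4% of its exon bases with Ocel1 on the opposite strand, which stood at 2.26, 2.06 and 1.73 RPKM in the libraries labelled Notch1+/-, against 1.13, 1.65 and 1.56 RPKM in wildtype.

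Among genes lower in the libraries labelled Notch1+/-, Ptcd2, a mitochondrial RNA-binding protein, stood at 1.28, 1.84 and 1.58 RPKM in the libraries labelled Notch1+/-, against 3.13, 3.50 and 2.37 RPKM in wildtype (log2 difference -0.75, SE 0.22). Arntl2, a partner of the clock protein Clock, stood at 0.463, 0.704 and 0.760 RPKM in the libraries labelled Notch1+/-, against 1.36, 1.64 and 1.31 RPKM in wildtype (log2 difference -0.77, SE 0.23). Actr3b, an actin-related protein, stood at 1.51, 0.813 and 0.285 RPKM in the libraries labelled Notch1+/-, against 2.59, 2.33 and 2.00 RPKM in wildtype (log2 difference -1.13, SE 0.34), and Enthd2 had -0.99 (SE 0.29). Ptcd2 and Actr3b, like Arntl2 and Enthd2, stood near the filter of 1 RPKM.

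Short RNA genes filled much of the rest of both lists, and rest on few reads. Mir6346 had 2, 4 and 4 reads in the libraries labelled Notch1+/-, against 1 read in 1 wildtype library and the floor in the other two. Mir100 had 4, 3 and 5 reads in the libraries labelled Notch1+/-, against 2 reads in each of 2 wildtype libraries. The 5S ribosomal RNA genes n-R5s188, n-R5s142 and n-R5s128 had at most 6 reads in any distal library. Mir3058 had 1, 3 and 3 reads in the libraries labelled Notch1+/-, against 7 reads in each wildtype library, and the ribosomal protein pseudogene Rps27a-ps1 3 to 15 reads in the libraries labelled Notch1+/-, against 31 to 42 reads in wildtype. Mir8097, at 33, 35 and 19 reads in the libraries labelled Notch1+/-, against 65, 58 and 67 reads in wildtype, lies wholly within exons of Rnf19a, whose log2 difference was -0.15. The microRNA gene AL593843.1, at 45, 38 and 42 reads in the libraries labelled Notch1+/-, against 13, 23 and 21 reads in wildtype, lies with 95.2% of its bases in exons of Kansl1, whose difference was 0.07. The unnamed-function transcripts RP23-20K24.9 and RP23-21F2.5 had log2 differences of 0.96 and 1.51 on at most 75 and 17 reads. Reads of a short gene inside a longer one cannot be assigned from these values alone.

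Genes within 10 Mb of Notch1 on chromosome 2 gave 0 called of 221 tested and 7 at an unadjusted p under 0.05, 2 higher and 5 lower, beside 3.05% of all genes. The median difference was -0.01. Gm24134, a small nucleolar RNA inside Rpl7a (chr2:26912530-26912600), lay at the floor in 2 libraries labelled Notch1+/- and at 0.812 RPKM, 1 read, in the third, against 5.84, 12.2 and 8.93 RPKM in wildtype, 6, 16 and 11 reads (log2 difference -3.46, SE 0.84). Rpl7a, which encodes a ribosomal protein and is the host of that RNA, stood at 21.8, 22.1 and 16.2 RPKM in the libraries labelled Notch1+/-, against 26.6, 25.7 and 22.8 RPKM in wildtype (log2 difference -0.32, SE 0.17). Dph7, an enzyme of diphthamide synthesis, stood at 0.50, 1.04 and 1.07 RPKM in the libraries labelled Notch1+/-, against 1.93, 1.93 and 1.61 RPKM in wildtype (log2 difference -0.79, SE 0.29).

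Genes of the circadian clock differed widely between libraries of the same genotype. In the clock, the activators Arntl (Bmal1) and Clock or Npas2 drive the repressors Per and Cry and the output factors Dbp, Tef and Hlf through E-box elements, while Nr1d1 (Rev-erb alpha) represses Arntl, so the arms peak at opposite times of day. Arntl stood at 0.148, 0.361 and 3.26 RPKM in libraries 1, 2 and 3 labelled Notch1+/-, against 0.158, 0.299 and 4.88 RPKM in wildtype libraries 1, 2 and 3, and did not pass the filter. Npas2 stood at 0.786, 1.12 and 10.9 RPKM in the libraries labelled Notch1+/-, against 0.620, 1.38 and 12.7 RPKM in wildtype. In both genes the library numbered 3 was far above the others of its genotype.

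The output gene Dbp and the repressors Per2 and Per3 ran the other way. Dbp stood at 22.8, 23.4 and 2.19 RPKM in the libraries labelled Notch1+/-, against 17.1, 20.1 and 0.959 RPKM in wildtype. Per2 stood at 18.0, 16.2 and 3.14 RPKM in the libraries labelled Notch1+/-, against 22.9, 15.0 and 3.33 RPKM in wildtype. Per3 stood at 15.5, 16.2 and 1.67 RPKM in the libraries labelled Notch1+/-, against 14.4, 14.5 and 1.81 RPKM in wildtype. Here library 3 was the lowest of each genotype. It was also the lowest in the proximal libraries of the same mice, with Dbp at 22.2, 19.7 and 3.53 RPKM in those labelled Notch1+/-, against 17.9, 17.6 and 1.14 RPKM in wildtype. Mt1, a metallothionein gene that glucocorticoids induce, stood at 149, 81.5 and 22.2 RPKM in the libraries labelled Notch1+/-, against 132.9, 117.9 and 21.6 RPKM in wildtype distal libraries. Fkbp5, another glucocorticoid-induced gene, stood at 6.49, 3.04 and 1.08 RPKM in the libraries labelled Notch1+/-, against 6.51, 4.08 and 0.398 RPKM in wildtype. The labels do not give the time of day at which each mouse was taken.

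Across genotypes the clock list gave 1 of 17 tested genes at an unadjusted p under 0.05, beside 3.05% of all genes. That gene was Cry1, and the list median was 0.06. Cry1, a repressor of the activators, stood at 1.18, 1.23 and 0.650 RPKM in the libraries labelled Notch1+/-, against 3.44, 1.58 and 1.30 RPKM in wildtype (log2 difference -0.72, SE 0.32, unadjusted limma p 0.0465). In proximal tissue of the same mice it stood at 0.977, 1.09 and 0.575 RPKM in the libraries labelled Notch1+/-, against 2.69, 1.62 and 1.88 RPKM in wildtype (log2 difference -0.89). At both locations each library labelled Notch1+/- lay below each wildtype library, and the locations share their mice. Nr1d1 stood at 182, 154 and 53.6 RPKM in the libraries labelled Notch1+/-, against 75.1, 130 and 29.4 RPKM in wildtype (log2 difference 0.79, SE 0.58). Rora, an activator of Arntl, had -0.34 (SE 0.22). In the glucocorticoid list Tsc22d3 had -0.79 (SE 0.67) and Pdk4 -0.52 (SE 0.54), with 0 of 14 genes at an unadjusted p under 0.05. Without the 4 libraries numbered 3, a setting chosen after seeing the data, 0 genes were called in the distal aorta and 542 had an unadjusted p under 0.05.

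Promoters of 3 clock genes are shown because they carry the E-box that the activators bind, Ciart and Per1 as genes lowest in library 3 of each group and Cry1 as the clock gene with the smallest p between genotypes. Each window runs from 250 bases before to 50 bases after the start (RefSeq, GRCm38.p6), with the E-box CACGTG, which reads the same on both strands, in capitals. Ciart lies at chr3:95882179-95882478 on the minus strand, Per1 at chr11:69098699-69098998 on the plus strand and Cry1 at chr10:85185005-85185304 on the minus strand.
Ciart: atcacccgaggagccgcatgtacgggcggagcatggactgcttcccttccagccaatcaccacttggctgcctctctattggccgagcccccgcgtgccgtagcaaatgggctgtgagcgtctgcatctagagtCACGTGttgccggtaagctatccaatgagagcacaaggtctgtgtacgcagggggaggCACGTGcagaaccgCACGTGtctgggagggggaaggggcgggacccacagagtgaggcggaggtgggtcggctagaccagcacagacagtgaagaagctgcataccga
Per1: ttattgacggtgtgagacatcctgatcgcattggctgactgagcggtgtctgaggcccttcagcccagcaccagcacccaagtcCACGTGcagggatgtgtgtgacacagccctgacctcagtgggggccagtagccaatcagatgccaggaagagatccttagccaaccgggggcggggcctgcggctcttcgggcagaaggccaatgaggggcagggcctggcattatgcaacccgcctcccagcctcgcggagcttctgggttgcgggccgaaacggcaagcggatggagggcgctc
Cry1: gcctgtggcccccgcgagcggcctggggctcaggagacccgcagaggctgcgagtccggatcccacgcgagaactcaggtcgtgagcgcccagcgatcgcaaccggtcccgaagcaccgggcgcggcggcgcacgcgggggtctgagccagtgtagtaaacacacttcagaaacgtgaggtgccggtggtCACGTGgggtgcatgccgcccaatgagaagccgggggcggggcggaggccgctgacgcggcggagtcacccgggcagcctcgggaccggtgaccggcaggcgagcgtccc
The Ciart window holds 3 E-boxes and each of the others holds 1, the Per1 window being the one of 2 in the table with the motif. Of 16 listed clock genes with a promoter, 5 hold the motif (31.2%), against 2187 of all 27025 genes (8.09%). Ciart stood at 7.42 RPKM, 2.70 RPKM and the floor in the libraries labelled Notch1+/-, against 4.58, 2.83 and 0.229 RPKM in wildtype, and Per1 at 15.5, 10.1 and 4.16 RPKM in the libraries labelled Notch1+/-, against 14.3, 15.3 and 2.09 RPKM in wildtype, with library 3 again lowest in each genotype.

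**Figure D4:**
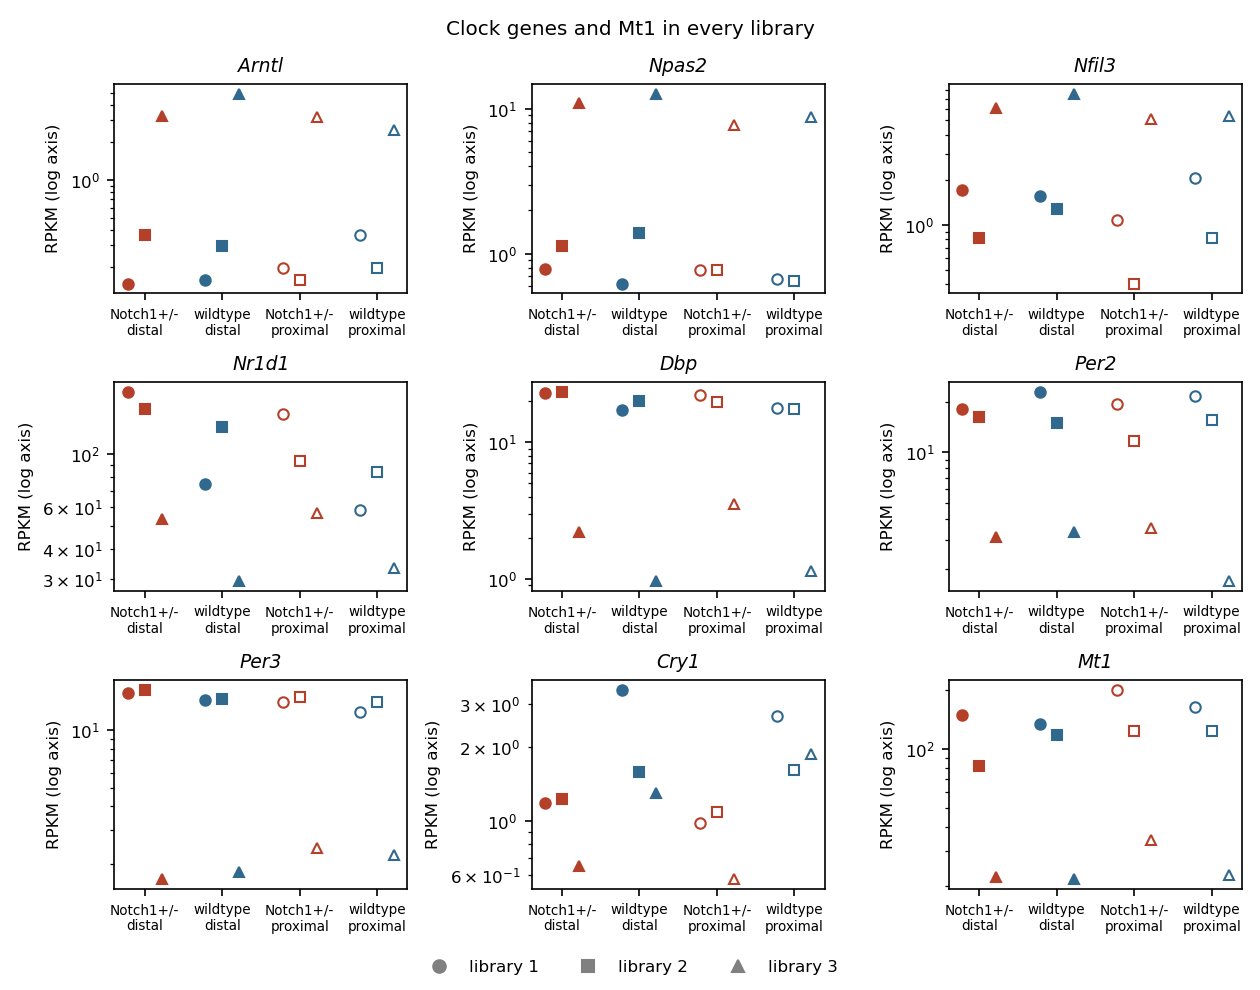
RPKM on a log axis of 8 clock genes and Mt1 in all 12 libraries, with distal libraries filled and proximal libraries open, those labelled Notch1+/- in red and wildtype in blue; circles, squares and triangles are libraries 1, 2 and 3 of a group. The triangles stand apart from the circles and squares in both genotypes and both locations for Arntl, Npas2, Nfil3, Dbp, Per2, Per3 and Mt1, while Cry1 lies lower in the libraries labelled Notch1+/- (0.650 to 1.23 RPKM against 1.30 to 3.44 RPKM in distal wildtype).

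Markers of other cell types varied between libraries within a genotype, and fewer cells of a type and less RNA per cell cannot be told apart in bulk tissue. White fat genes had 0 of 15 tested at an unadjusted p under 0.05, with differences below 0 for 13 and a median of -0.89. The summed level of the 22 white fat genes in the table, below the filter or not, was 48.0 to 180 RPKM in the libraries labelled Notch1+/-, against 62.4 to 439 RPKM in wildtype. Fabp4, a fatty acid carrier of fat cells and capillaries, stood at 2.92, 8.22 and 1.1 RPKM in the libraries labelled Notch1+/-, against 5.91, 33.1 and 2.30 RPKM in wildtype (log2 difference -1.22, SE 0.82), and Adipoq lay at the floor in 2 libraries labelled Notch1+/- and 1 wildtype library. Wildtype library 2 was the highest for all 15 of these genes, and without it the median was -0.19 with 7 of 15 above 0.

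Ucp1, the uncoupling protein of brown fat, was listed at the floor in 2 libraries labelled Notch1+/- and at 0.877 RPKM in the other, against 1.93, 4.69 and 1.30 RPKM in wildtype (log2 difference -1.75, SE 0.49), and passed the filter only through wildtype. Of the 8 brown fat genes tested, 3 had differences above 0. Cox7a1, a respiratory subunit of fat and muscle, stood at 2.66, 0.339 and 0.634 RPKM in the libraries labelled Notch1+/-, against 3.04, 10.6 and 1.42 RPKM in wildtype (log2 difference -1.55, SE 0.76).

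Heart muscle genes followed single libraries of both genotypes. Myh6, the alpha myosin heavy chain of the atria and the mouse ventricle, stood at 48.0, 4.93 and 2.31 RPKM in the libraries labelled Notch1+/-, against 2.12, 119 and 5.30 RPKM in wildtype. The list of 17 tested genes had 0 at an unadjusted p under 0.05 and a median of -0.38. The 23 heart muscle genes in the table, below the filter or not, summed to 127 to 364 RPKM in the libraries labelled Notch1+/-, against 155 to 535 RPKM in wildtype. Tnnc1 had -0.95 (SE 0.61) and Tnni3, also a troponin subunit, -1.55 (SE 1.01). Without wildtype library 2 the median was 0.32, without library 3 labelled Notch1+/- it was 0.08, and without library 1 labelled Notch1+/- it was -1.23, so its sign depended on which library was kept. Mb and Ckm, muscle genes shared by heart and skeletal muscle, had -1.37 (SE 1.12) and -1.15 (SE 0.78).

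Macrophage genes had 9 of 9 tested with differences below 0, a median of -0.34 and 0 at an unadjusted p under 0.05. The 15 macrophage genes in the table, below the filter or not, summed to 23.0 to 51.2 RPKM in the libraries labelled Notch1+/-, against 25.3 to 89.7 RPKM in wildtype. C1qc, a complement chain made by tissue macrophages, stood at 3.76, 4.05 and 2.03 RPKM in the libraries labelled Notch1+/-, against 7.26, 8.54 and 2.60 RPKM in wildtype (log2 difference -0.72, SE 0.35), and Lyz2, lysozyme, at 12.5, 14.1 and 5.19 RPKM in the libraries labelled Notch1+/-, against 22.7, 31.0 and 9.10 RPKM in wildtype (log2 difference -0.90, SE 0.45). Without wildtype library 2 the list median was -0.07 and 4 of 9 lay above 0. Of the class II antigen presentation genes, Cd74 had -0.77 (SE 0.47) and H2-Aa -0.40 (SE 0.30).

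Lyve1, a hyaluronan receptor of lymphatic endothelium and of vessel wall macrophages, stood at 9.27, 13 and 4.34 RPKM in the libraries labelled Notch1+/-, against 23.4, 21.4 and 8.55 RPKM in wildtype (log2 difference -0.96, SE 0.39, unadjusted limma p 0.0297). The other lymphatic genes tested, Ccl21a and Pdpn, had -0.58 (SE 0.83) and -0.19 (SE 0.46). Endothelial genes had 0 of 14 tested at an unadjusted p under 0.05 and a median of 0.10, with the junction gene Cdh5 at -0.40 (SE 0.34) and the nitric oxide synthase gene Nos3 at 0.33 (SE 0.36). Fibroblast genes had 0 of 16 and a median of -0.05, with Smoc2 at -0.46 (SE 0.23), and mesothelial genes 0 of 8, with Krt19 at 0.49 (SE 0.41). Whether shares of these cells bear on any gene above was not tested beyond the settings named.

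Blood and airway transcripts also varied between libraries of the same genotype. Of 6 red cell and platelet genes tested, 5 had differences below 0 (median -1.12) and 0 had an unadjusted p under 0.05. In every library 2 of the 6 lay below wildtype, beside 3.69% of all genes. Hbb-bt, a beta globin gene of red cells, stood at 0.536, 9.12 and 2.79 RPKM in the libraries labelled Notch1+/-, against 7.96, 8.18 and 19.5 RPKM in wildtype (log2 difference -1.83, SE 0.95), and its near-identical neighbour Hbb-bs had -1.70 (SE 0.95), with reads that could be split either way. The groups overlapped for Hbb-bt. Scgb1a1, a secretoglobin of airway club cells, stood at 3.84, 1.55 and 0.158 RPKM in the libraries labelled Notch1+/-, the last at the floor, against 99.8, 19.5 and 161 RPKM in wildtype. The groups did not overlap, and the log2 difference of -5.25 (SE 1.68, unadjusted limma p 0.00842) was the lowest of all genes. In proximal tissue of the same mice it stood at 1.08, 0.158 and 14.3 RPKM in the libraries labelled Notch1+/-, against 145, 0.241 and 47.3 RPKM in wildtype, where the groups overlapped. Scgb3a2, another airway secretoglobin, was at the floor in 5 of the 6 distal libraries and at 2.16 RPKM in wildtype library 3, and the club cell, surfactant and thyroid genes listed with it were otherwise not analysed here.

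**Figure D5:**
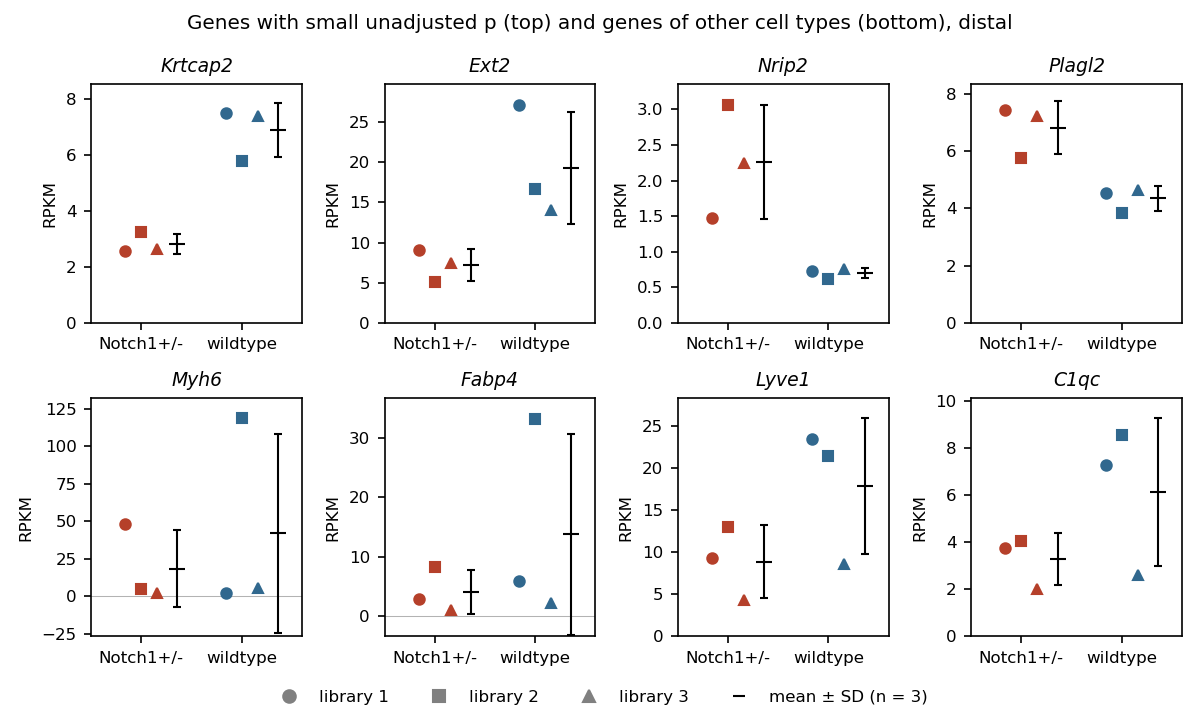
RPKM (vertical axes) in each distal library labelled Notch1+/- (red) and wildtype (blue); points are libraries, black marks the mean ± SD (n = 3), and a bar below 0 shows only that the SD exceeds the mean. Krtcap2, Ext2, Nrip2 and Plagl2 (top), chosen for groups that do not overlap, separate the groups, while Myh6 of heart muscle, Fabp4 of fat, Lyve1 and C1qc (bottom) overlap, with wildtype library 2 highest for Myh6 (119), Fabp4 (33.1) and C1qc (8.54).

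Ribosomal protein and respiratory chain genes leaned below wildtype by small amounts. Of 34 cytosolic ribosomal protein genes 28 had differences below 0 (median -0.18) and 0 had an unadjusted p under 0.05. In every library 2 of the 34 lay below wildtype, beside 3.69% of all genes. Without library 3 labelled Notch1+/- the median was -0.03 and 19 of 34 lay below 0. Rpl38 stood at 21.2, 17.6 and 19.5 RPKM in the libraries labelled Notch1+/-, against 24, 35.1 and 23.0 RPKM in wildtype (log2 difference -0.46, SE 0.26), and Rpl35 had -0.33 (SE 0.20). Of 30 respiratory chain genes of the nucleus 27 had differences below 0 (median -0.19), with Atp5c1, a subunit of ATP synthase, at -0.51 (SE 0.29) and Ndufs1 of complex I at -0.40 (SE 0.25). The medians stood 0.14 and 0.15 below that of all genes, and the respiratory chain list stood 0.00 below it without wildtype library 2. The 15 mitochondrial genes had differences of -0.20 to -0.05, and all 15 lay above 0 without library 2 labelled Notch1+/-, the library with 24.1% of its summed RPKM from the mitochondrial genome.

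No difference between the locations in the effect of genotype passed its test: 0 of 15592 genes had an adjusted limma p under 0.05 (lowest 0.9996), and 449 had an unadjusted p under 0.05 (2.88%). The genotype comparison within proximal tissue, fitted in the same model, gave 0 called and 502 at an unadjusted p under 0.05 (3.22%). Among the Notch genes the distal and proximal differences were 0.56 and 0.38 for Notch1, 0.15 and 0.64 for Hes1, 0.41 and 0.23 for Heyl and 0.20 and 0.10 for Hey2.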

How the data were processed

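Members and gene lists were chosen with earlier results of these data known. Per the labels' protocols, total RNA was amplified from 10 ng with NuGEN Ovation RNA-Seq v2 and sequenced as paired 50-base reads; the submitters' processing notes name TopHat2 2.1.0, Bowtie2, R 3.2.2 and the mm10 build. No label or note names the counter or gene annotation. Per the file headers, the authors deposited 1 RPKM value per gene and library, listed an RPKM equivalent of 10 reads for each library (0.147 to 0.189 in distal libraries, the same for every gene) with 1 replacement value of 0.158 RPKM, and deposited ANOVA and Tukey p-values with fold ratios. The 24 per-sample columns of a re-sorted copy and a correlation matrix were not used.

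Computed here: limma 3.58.1 (R 4.3.3) with a variance trend on log2(RPKM + 0.5), 4 group means over 12 libraries, 8 residual and 4.35 prior degrees of freedom, 2-sided tests, Benjamini-Hochberg adjustment over 15592 genes and 95% intervals. The fit was tested on simulated data. A count test was not used, since the files hold RPKM. Read numbers were worked back as RPKM times exon length times a library denominator of 14476730 to 18586918 distal reads. They came out whole within 0.02 reads for 99.1% of tested genes. This share includes genes for which the GENCODE M21 exon length (same build) failed and another length was searched for. Read numbers are given only for genes whose M21 length held. They cover counting error only, since amplified reads are not independent molecules. Within a group, replicates are separate mice. Each mouse gave a distal and a proximal library, and the main fit had no term for mouse. With mouse as a random effect the correlation within mice was 0.0915. In that fit 0 genes passed adjustment for genotype in distal tissue, and 0 for the difference between locations. The named genes are Notch1 with the listed receptors, ligands and targets, the 12 genes per direction with the smallest p and groups that did not overlap (predicted genes left out), and the 2 genes with the smallest p in each other list; others were chosen after their values were seen. Of 48 lists, 4 symbols were matched through older names. Alternatives were other pseudocounts, filters, scalings, variance models, covariates, a replicate block, mouse as a random effect and leaving out libraries.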

Additional observations from a re-analysis of the deposited data

Results flagged for a closer look

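Krtcap2 and the 5S ribosomal RNA gene n-R5s142 are given here because each library labelled Notch1+/- lay below each wildtype library in distal tissue and above each in proximal tissue. For Krtcap2 the distal difference minus the proximal one was -1.55 (SE 0.28, unadjusted limma p 0.000131, adjusted p 0.9996), with proximal values of 5.18, 3.77 and 3.49 RPKM in the libraries labelled Notch1+/-, against 2.89, 3.43 and 2.63 RPKM in wildtype. For n-R5s142 it was -1.73 (SE 0.39, adjusted limma p 0.9996), on at most 3 reads per distal library. This gene passed the filter only through distal wildtype libraries, so its distal side and the difference between locations drawn from it are a description. Neither passed adjustment over all genes. Groups of 3 were too small for a check of single libraries as outliers.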

How the results depend on the processing

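Over 26 alternatives the number of distal genes with an adjusted p under 0.05 stayed at 0 (lowest adjusted p in any of them 0.0804, with the replicate block), except that library weights gave 1, Gm22547 (adjusted p 0.0159), with a weight of 5.21 on library 1 labelled Notch1+/-. The number for the difference between locations stayed at 0 wherever it could be fitted. Genes with an unadjusted p under 0.05 numbered 475 as reported, 2035 with library weights and 314 with a mean of at least 2 RPKM. They numbered 208 among protein-coding genes alone and 230 with at least 50 reads in 3 libraries, both settings chosen after seeing the data. The 50-read setting tested 9207 genes. It also dropped every gene whose M21 exon length did not hold, however high its RPKM. Leaving out 1 library gave 458 to 1198, the highest without library 2 labelled Notch1+/-. The Notch1 difference was 0.37 to 0.76 over all settings that fit a log2 mean and 0.79 from the log2 of the means. Of 125 other named genes 89 kept their sign under every alternative, and 41 of 3155 values moved by over 1 SD within groups. Several settings leave the fitted difference of a gene unchanged, and leaving out 1 library of 3 cannot move it by 1 SD. The count of moved values therefore does not measure stability. Across genotypes, deviations of same-numbered libraries from their group means correlated at 0.018, 0.110 and 0.196. Library 1 labelled Notch1+/- correlated best with wildtype library 2 (0.101), and libraries 2 and 3 with the wildtype library of their own number. Libraries numbered 3 also shared the clock gene levels described above. What else the replicate numbers share was not tested. With the replicate block 0 genes were called and 566 had an unadjusted p under 0.05. With 3 mice a group and a floor at 0.158 RPKM, differences in genes of few reads are the least certain.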
